A study of Mus musculus with 6 samples.

Results

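Heme synthesis and breakdown were followed through 9 genes: Alas1, Alad, Uros, Urod, Cpox, Ppox and Fech, which encode enzymes that build heme, and Hmox1 and Hmox2, which encode the oxygenases that open it. They were chosen by the role of their products from the 27198 genes with deposited counts, and all 9 were among the 16520 genes with enough counts to be tested. The cells were hematopoietic stem cells (HSCs), from which every blood lineage descends, of wild-type male C57BL/6 mice aged 8 to 10 weeks without irradiation. Control (Ctrl) mice received the vehicle, and mice on long-term ferulic acid (l-FA), a phenolic acid of plants, received 50 mg per kg of body weight per day intraperitoneally for 30 days. The sort kept cells negative for lineage markers, Flk2 (CD135) and CD34 and positive for Sca-1 and c-Kit, and each group has 3 RNA-seq libraries made from amplified cDNA. How many mice stand behind a library is not given in the sources used here, so p-values measure the spread between libraries, which may be partly technical.

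Heme is an iron-holding ring that serves cytochromes, catalase and hemoglobin. Its synthesis begins in the mitochondrion, passes through the cytosol and returns to the mitochondrion, where iron is inserted in the last step, and the first enzyme, 5-aminolevulinate synthase, sets the pace. The Alas1 form of that enzyme is found in most tissues and is held down by heme itself, whereas Alas2 belongs to erythroid cells. Heme oxygenase splits heme into biliverdin, carbon monoxide and ferrous iron, so the pathway both uses and releases the metal. Hmox1 is the inducible form, repressed by Bach1 and induced through Nfe2l2 (NRF2), and Hmox2 is the constitutive form.

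Library totals lay between 19287735 and 20380610 counts, so depth differed little between the groups. Expression is given below as CPM, counts scaled to a common library size with TMM factors, and the change as a log2 fold change of l-FA over Ctrl with its standard error (SE). Adjusted p-values are those of the quasi-likelihood test in edgeR, corrected over all genes tested after Benjamini and Hochberg. Many genes differed between the groups: 50.5% of all genes tested passed an adjusted p of 0.05, 25.5% higher and 25.0% lower in l-FA, and 11.8% also passed the 2-fold limit of the study's methods, with 5.10% of all genes tested lower past that limit. Kit, Ly6a (Sca-1) and Procr, the 3 HSC markers highest in FPKM, were present in every library, and 7 of 10 HSC markers rose and 1 fell. Transcripts of the excluded proteins Flk2 (gene Flt3) and CD34 were abundant all the same. Flt3 stood at 759 ± 3.43 CPM in Ctrl and 1183 ± 19.8 CPM in l-FA, and Cd34 at 1343 ± 18.4 and 1579 ± 38.2 CPM (SD, n = 3 each). The lineage markers Cd3e and Ly6g, named after their values were seen, had too few counts to be tested. Cd3e had 0, 0 and 4 counts in Ctrl and 6, 3 and 10 in l-FA. Ly6g had 3, 6 and 8 counts in Ctrl and 0 in every l-FA library. Ptprc, which blood cells in general express and of which a B-cell form is sorted out, stood at 307 ± 35.4 and 347 ± 65.0 CPM.

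Of the 9 genes, 6 passed the test, 4 lower and 2 higher in l-FA, and the 2 that passed the 2-fold limit, Alas1 and Cpox, were both lower. No member rose beyond 2-fold. The median log2 fold change of the 9 was -0.16, beside 0.0035 over all genes tested. With 50.5% of all genes passing, a count of 6 in 9 is near the background and is no result about these genes. The CPM of the 7 synthesis genes summed to between 974.7 and 998.6 per Ctrl library and to between 545.7 and 547.6 per l-FA library, and nearly all of that fall was the fall of Alas1. Without Alas1, the other 6 synthesis genes summed to between 371 and 388 CPM in Ctrl and to between 369.8 and 383 CPM in l-FA. The 2 oxygenase genes summed to between 114 and 165 CPM in Ctrl and to between 114 and 164 CPM in l-FA.

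**Figure D1:**
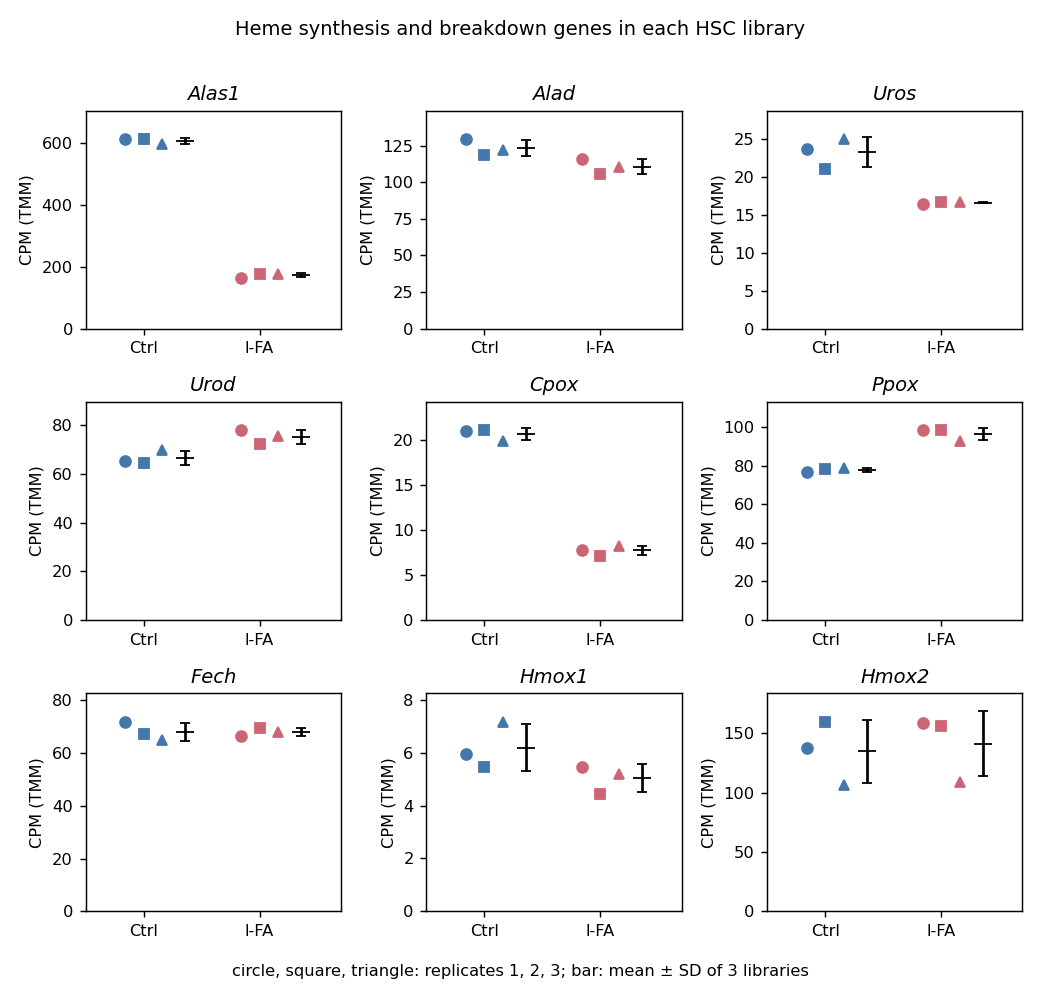
Expression of the 9 heme genes in each HSC library in CPM after TMM scaling, on linear axes that start at 0, with circles, squares and triangles for replicates 1, 2 and 3 and a bar for the mean ± SD of 3 libraries. Alas1 and Cpox show the widest gaps between the groups, Ppox and Urod lie higher in l-FA, and the groups overlap for Fech, Hmox1 and Hmox2.

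Alas1, the housekeeping synthase of the first step, fell by the most. It was listed at 610.3, 611.1 and 594.3 CPM in the Ctrl libraries and at 164, 177 and 174 CPM in the l-FA libraries, from 11402 to 11840 counts against 3454 to 3558. Every l-FA library lay far below every Ctrl library, and the spread within a group was small, with a coefficient of variation of 1.57% in Ctrl and 3.92% in l-FA. The mean went from 605 ± 9.49 to 172 ± 6.74 CPM (SD, n = 3), a 3.52-fold lower level (log2 fold change -1.81, SE 0.034, 95% interval -1.90 to -1.73, edgeR adjusted p = 1.06e-06). In size this exceeded 94.4% of the log2 fold changes of all genes tested. In bulk libraries, fewer cells of a type with much of a transcript and less of it per cell cannot be told apart. Granulocyte-monocyte markers moved the same way, and all 9 tested of the 10 listed fell by more than 2-fold. Over all genes tested, 5.10% were lower past the 2-fold limit. The median of the markers was -1.91, and their summed CPM went from between 23384 and 24224 in Ctrl to between 5750 and 6071 in l-FA. Itgam (Mac-1), a myeloid marker outside that list and named after its values were seen, rose from 44.8 ± 3.61 to 63.6 ± 5.43 CPM (SD, n = 3). Mpo, the myeloperoxidase that itself carries heme, stood at 18544 ± 505 CPM in Ctrl and 4938 ± 167 CPM in l-FA, Elane at 3211 ± 28.7 and 455 ± 5.21 CPM, and Ctsg at 616 ± 3.55 and 192 ± 5.21 CPM (SD, n = 3). The part of these transcripts in the change of Alas1 was not tested.

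By the coordinates listed with the counts, whose build the submitters' notes give as GRCm39, the gene lies on chromosome 9 from 106110654 to 106125853 (ENSMUSG00000032786). Nuclear respiratory factor sites are a known feature of the Alas1 promoter, so the stretch before its start was searched for the letters CGCATGCG, a core that reads alike on both strands. In RefSeq's promoter table (GRCm38.p6, another build than that of the counts) the core lies from -194 to -187 of an annotated start on the minus strand. The 26 bases at chr9:106247908-106247933 are shown here, the core in capitals between its flanks. Other annotated Alas1 exons cover this stretch.
Alas1 site: cacccaaggCGCATGCGcggcggtca
The same letters occur in 1.55% of the 32851 windows of 250 bases before an annotated start. The match is a description of the sequence only.

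Alad, Uros and Urod serve the cytosolic steps. Alad, which joins aminolevulinate molecules into porphobilinogen, stood at 129.6, 118.9 and 121.8 CPM in Ctrl and 116, 106 and 110.2 CPM in l-FA. The l-FA values lay just below the Ctrl values without overlapping, for a log2 fold change of -0.16 (SE 0.049, 95% interval -0.27 to -0.04, edgeR adjusted p = 0.0359). The difference of the means was little wider than the range within a group, and the call was lost when Ctrl replicate 1 (adjusted p = 0.102), Ctrl replicate 3 (0.0626), l-FA replicate 2 (0.134) or l-FA replicate 3 (0.112) was left out, with upper-quartile scaling (0.0679) and without the low-count filter (0.0517). In FPKM, which is not TMM-scaled, the groups of Alad overlapped. Alad lies on chromosome 4 from 62427406 to 62438155 (ENSMUSG00000028393).

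Uros, which closes the ring of uroporphyrinogen III, fell more clearly. Its values were 23.8, 21.1 and 25.0 CPM in Ctrl and 16.5, 16.7 and 16.7 CPM in l-FA, so that all l-FA libraries were below the lowest Ctrl library. The 3 l-FA values were closer together (coefficient of variation 0.574%) than counting alone would make them on average (5.44%). The level was 1.40-fold lower (log2 fold change -0.49, SE 0.078, 95% interval -0.67 to -0.30, edgeR adjusted p = 0.00233). Uros lies on chromosome 7 from 133287972 to 133311801 (ENSMUSG00000030979) and shares 740 bases of its listed span with Bccip and could share reads with it where strand was not used in counting. Bccip had from 3027 to 3147 counts in Ctrl and from 2360 to 2670 in l-FA, against 394 to 499 and 333 to 347 for Uros.

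Urod, which takes carboxyl groups off uroporphyrinogen, went the other way. It stood at 65.5, 64.7 and 69.7 CPM in Ctrl and at 78.0, 72.2 and 75.6 CPM in l-FA, with each l-FA library above each Ctrl library. The mean rose 1.13-fold (log2 fold change 0.18, SE 0.047, 95% interval 0.06 to 0.29, edgeR adjusted p = 0.0206). Urod lies on chromosome 4 from 116847162 to 116851610 (ENSMUSG00000028684). Its rise was small, and the call was lost without Ctrl replicate 1 (adjusted p = 0.0659), Ctrl replicate 2 (0.0656) or l-FA replicate 1 (0.0506).

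Cpox, Ppox and Fech act at the mitochondrion in the last steps, and each moved differently. Cpox, coproporphyrinogen oxidase, was counted 403, 392 and 395 times in Ctrl and 163, 143 and 164 times in l-FA, which gave 7.76, 7.13 and 8.21 CPM in l-FA and no less than 19.8 CPM in Ctrl. The groups were well apart, and the spread within each (3.30% and 7.05% as coefficients of variation) was no wider than counting alone would give (5.02% and 7.99%). The mean went from 20.6 ± 0.681 to 7.70 ± 0.543 CPM (SD, n = 3), a 2.67-fold lower level (log2 fold change -1.42, SE 0.080, 95% interval -1.61 to -1.23, edgeR adjusted p = 4.11e-05). Cpox lies on chromosome 16 from 58490655 to 58537999 (ENSMUSG00000022742) and shares 204 bases with Gpr15, which had at most 23 counts in any library.

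Ppox, protoporphyrinogen oxidase, uses the product of Cpox and yet rose. It stood at 76.7, 78.2 and 79.0 CPM in Ctrl and at 98.4, 98.4 and 92.7 CPM in l-FA. The lowest l-FA library was above the highest Ctrl library by more than the spread of either group, and the mean was 1.24-fold higher (log2 fold change 0.31, SE 0.037, 95% interval 0.22 to 0.40, edgeR adjusted p = 0.00075). Ppox lies on chromosome 1 from 171103563 to 171108760 (ENSMUSG00000062729) and shares 907 bases with B4galt3, which had between 827 and 932 counts in Ctrl and between 844 and 1104 in l-FA, with the groups overlapping.

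Fech (ENSMUSG00000024588), the ferrochelatase that inserts iron into protoporphyrin, showed no detectable difference. It stood at 71.8, 67.2 and 65.0 CPM in Ctrl and at 66.3, 69.5 and 68.0 CPM in l-FA, and the l-FA values all fell inside the range of the Ctrl values. The log2 fold change was -0.0013 (SE 0.048, edgeR adjusted p = 0.984), and its 95% interval of -0.12 to 0.11 holds only changes far smaller than those of Alas1 and Cpox.

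Cpox, Ppox and Urod are 3 of the members whose 250 bases before an annotated start in the RefSeq table held no annotated exon, and they are shown because they serve neighbouring steps while Cpox fell and Ppox and Urod rose. Capitals mark the motifs searched on both strands, namely the GATA site GATAAG, the CCAAT box CCAAT, the E-box CACGTG, the GC box GGGCGG, the core CGCATGCG and the antioxidant response core TGACNNNGC. The windows, in GRCm38.p6, are chr16:58669958-58670207 on the plus strand for Cpox, chr1:171281187-171281436 on the minus strand for Ppox and chr4:116994414-116994663 on the minus strand for Urod, each ending at the base before the start.
Cpox: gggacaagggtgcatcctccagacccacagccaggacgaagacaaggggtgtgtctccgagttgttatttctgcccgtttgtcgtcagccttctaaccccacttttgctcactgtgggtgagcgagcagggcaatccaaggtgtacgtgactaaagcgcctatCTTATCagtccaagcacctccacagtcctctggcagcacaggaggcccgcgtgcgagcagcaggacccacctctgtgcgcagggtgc
Ppox: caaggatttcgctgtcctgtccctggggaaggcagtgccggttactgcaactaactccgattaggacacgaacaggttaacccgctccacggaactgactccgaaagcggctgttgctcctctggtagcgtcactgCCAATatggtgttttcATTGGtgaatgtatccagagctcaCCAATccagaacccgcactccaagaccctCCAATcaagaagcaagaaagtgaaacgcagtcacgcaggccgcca
Urod: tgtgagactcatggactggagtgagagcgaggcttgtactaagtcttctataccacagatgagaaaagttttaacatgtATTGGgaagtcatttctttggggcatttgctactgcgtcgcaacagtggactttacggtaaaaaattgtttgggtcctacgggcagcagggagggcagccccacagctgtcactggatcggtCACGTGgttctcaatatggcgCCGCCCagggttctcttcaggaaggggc
The Cpox window held a single match, a GATA site read on the reverse strand from -87 to -82, and GATA sites occurred in 6.55% of all windows of this length. The Ppox window held 4 CCAAT boxes and nothing else of the letters searched, where 33.8% of all windows had at least 1. The Urod window held a CCAAT box from -171 to -167, an E-box from -49 to -44 and a GC box from -28 to -23, letters found in 33.8%, 6.02% and 32.7% of all windows. The search covered 12 windows of 7 of the 9 genes, and Fech and Hmox1 were not searched. The antioxidant response core, found in 10.2% of all windows, was not among the letters of any of the 12. That absence therefore says nothing of Hmox1 or Fech. These matches describe letters and say nothing of whether a factor was bound.

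**Figure D2:**
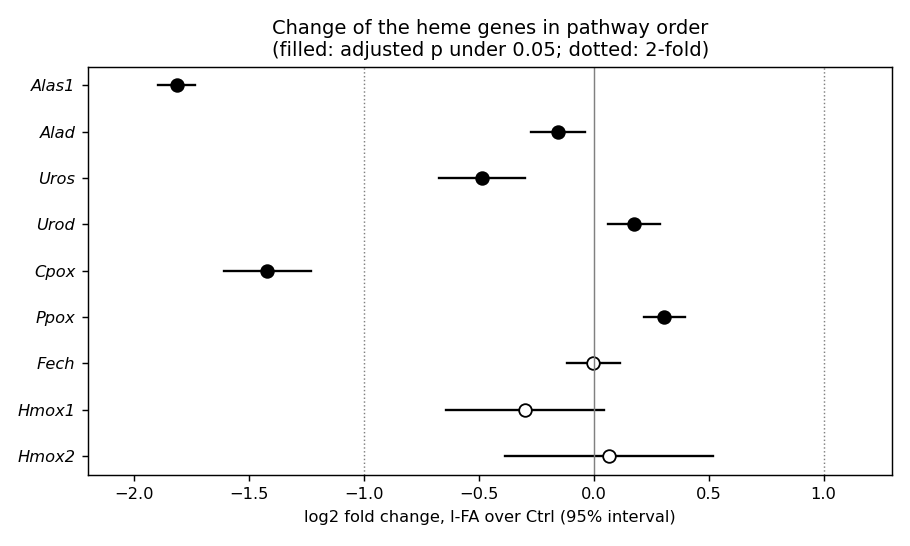
Log2 fold change of l-FA over Ctrl for the 9 heme genes in pathway order, with 95% intervals from edgeR over 3 libraries per group, filled points at an adjusted p under 0.05 and dotted lines at 2-fold. Alas1 (-1.81) and Cpox (-1.42) lie beyond the lower 2-fold line, Urod (0.18) and Ppox (0.31) lie above 0, and Fech (-0.0013) lies at 0.

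Heme breakdown did not show a detectable change. Hmox1 lies on chromosome 8 from 75820249 to 75827217 (ENSMUSG00000005413), and Hmox2 lies on chromosome 16 from 4544225 to 4584606 (ENSMUSG00000004070). Hmox1, the inducible oxygenase, was scarce at 5.94, 5.47 and 7.18 CPM in Ctrl and 5.48, 4.44 and 5.21 CPM in l-FA, from 102 to 143 counts and from 89 to 115 counts. The groups overlapped, and the log2 fold change of -0.30 (SE 0.14, 95% interval -0.64 to 0.05, edgeR adjusted p = 0.13) did not pass. It was -0.18 without Ctrl replicate 3. Counting alone gives a coefficient of variation of 9.14% in Ctrl and 9.87% in l-FA at this depth, against 14.3% and 10.7% observed, and the interval holds a change of the size seen for Uros.

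Hmox2, the constitutive oxygenase, was far more abundant but less even. It stood at 137.9, 159.5 and 106.7 CPM in Ctrl and at 158.6, 155.7 and 109.3 CPM in l-FA. Replicate 3 was the lowest library in both groups, and the coefficients of variation of 19.7% and 19.6% were about the same in the groups and well above the counting error of 1.97% and 1.86%. The log2 fold change was 0.07 (SE 0.19, 95% interval -0.38 to 0.52, edgeR adjusted p = 0.79), and it turned to -0.08 without Ctrl replicate 3 and to -0.0099 without l-FA replicate 1. Hmox2 shares 16395 bases of its listed span with Cdip1, which had 1482, 1357 and 749 counts in Ctrl and 2187, 2029 and 1124 counts in l-FA, also lowest in replicate 3 of each group. The part of Cdip1 reads in the Hmox2 counts was not tested. Macrophages, which break down heme of old red cells, were traced by 11 markers, of which 10 were tested. Of these, 2 rose and 3 fell, beside 25.5% higher and 25.0% lower among all genes tested, with a median log2 fold change of -0.06. The summed level of these markers was between 159 and 165 CPM in Ctrl and between 154 and 156 CPM in l-FA, most of it from Csf1r, which rose from 83.0 ± 0.747 to 88.9 ± 1.62 CPM, and Cd68, at 33.6 ± 0.815 and 31.0 ± 1.09 CPM (SD, n = 3). The sum covers opposite moves of scarcer markers. C1qb rose by 1.21 on the log2 scale, whereas Adgre1 (-3.08), Vcam1 (-1.12) and Mrc1 (-0.94), named after their values were seen, fell. Timd4 had 11, 10 and 8 counts in Ctrl and 0 in every l-FA library. No marker of the macrophage, erythroid or granulocyte-monocyte lists found in the table was at 0 in every library.

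Of the 9 genes, 6 had groups that did not overlap in CPM, beside 60.3% of all genes tested. The 3 whose groups overlapped were the last step of synthesis, Fech, and both oxygenases.

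Ratios within a library do not depend on how libraries are scaled. The level of an FPKM ratio depends on the gene lengths used, described with the levels, but the difference between the groups does not. The ratio of Alas1 to Fech in FPKM, the first step against the last, was 16.9, 18.0 and 18.1 in Ctrl and 4.92, 5.07 and 5.09 in l-FA, with no overlap (mean 17.7 ± 0.711 and 5.03 ± 0.0904, SD, n = 3; log2 difference -1.81, SE 0.037; two-sided exact permutation p = 0.1). The ratio of Alas1 to Hmox1 was 20.8 ± 3.11 in Ctrl and 7.24 ± 1.06 in l-FA, again without overlap (log2 difference -1.52, SE 0.18; two-sided exact permutation p = 0.1). The ratio of the inducible to the constitutive oxygenase, Hmox1 to Hmox2, was 0.0826 ± 0.0293 in Ctrl and 0.0633 ± 0.0168 in l-FA, and its groups overlapped (log2 difference -0.36, SE 0.36; two-sided exact permutation p = 0.5). That difference hung on single libraries, being -0.09 without Ctrl replicate 3, -0.19 without l-FA replicate 2, -0.58 without Ctrl replicate 2 and -0.56 without l-FA replicate 3. With 3 libraries against 3, the smallest p this test can give is 0.1, so none of the 3 ratios could pass 0.05.

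Levels can be compared between genes only per length, and the order of the 9 depended on which length was used. In the deposited FPKM of Ctrl, Alad was first at 57.9 ± 2.64 and Alas1 next at 52.7 ± 0.571, followed by Hmox2 (32.6 ± 6.26), Urod (12.9 ± 0.593), Ppox (9.07 ± 0.165), Uros (3.50 ± 0.318), Fech (2.98 ± 0.146), Hmox1 (2.57 ± 0.381) and Cpox (2.36 ± 0.0665; SD, n = 3 throughout). Neighbours whose library ranges overlapped were Fech with Hmox1 and Hmox1 with Cpox. The deposited length of a gene equalled the sum of all its distinct annotated exons, overlapping ones counted again, for 8 of the 9 genes, and for Urod and Ppox it was longer than the gene's own span. For Alas1 that length was 11162 bases, against 3399 bases for its longest coding transcript in GENCODE M21, so its FPKM is lowered relative to a gene such as Alad (2073 against 1247 bases).

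Per kilobase of the longest coding transcript, Alas1 stood first in Ctrl, at 178 ± 2.79 CPM per kb, ahead of Alad at 99.0 ± 4.44 and Hmox2 at 77.9 ± 15.3 (SD, n = 3). Urod (44.7), Ppox (42.8), Uros (13.2), Fech (10.3), Cpox (6.66) and Hmox1 (3.95 CPM per kb) followed, and no neighbours overlapped. In l-FA the head of the order changed on the same scale. Alad (88.8 CPM per kb) and Hmox2 (81.6) led with overlapping ranges, and Alas1 (50.6) lay in the middle, its range overlapping those of Ppox (53.0) and Urod (50.5). Fech (10.3), Uros (9.44), Hmox1 (3.21) and Cpox (2.49 CPM per kb) made up the low end. On this scale Alas1 went from the highest level of the 9 to a level not separated from Ppox and Urod, and Cpox from above Hmox1 to below it. In FPKM Alas1 was already second in Ctrl and was separated from Ppox in l-FA, and Cpox already ranked below Hmox1 in Ctrl. Per kilobase of the union of exons Alas1 was first in Ctrl but separated from Ppox in l-FA, and Cpox ranked below Hmox1 in both groups.

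**Figure D3:**
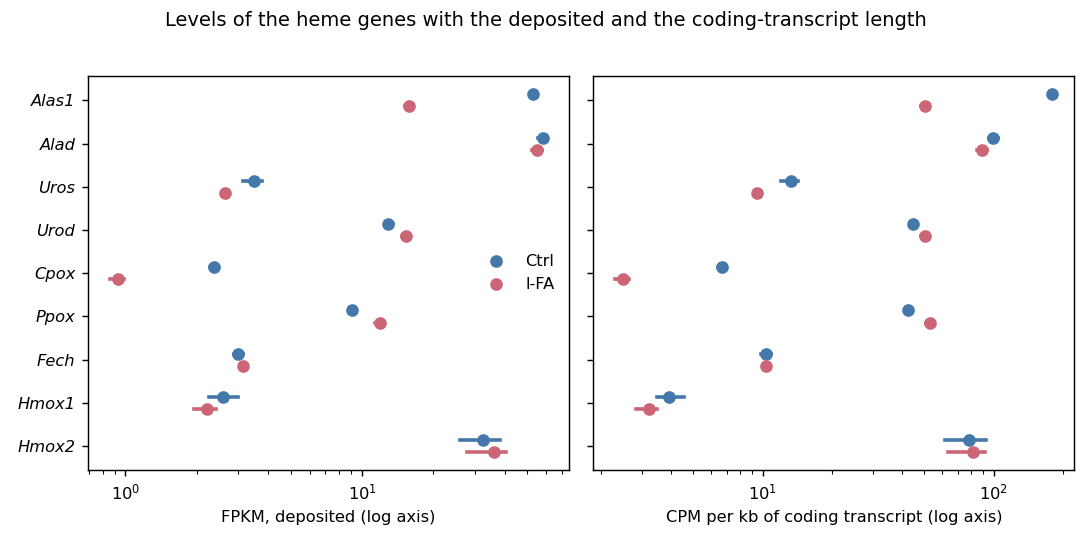
Levels of the 9 heme genes on log axes, as the deposited FPKM (left) and as CPM per kilobase of the longest coding transcript (right), with a point for the mean of 3 libraries and a line from the lowest to the highest library. Alas1 in Ctrl is 52.7 FPKM, below Alad, on the left and 178 CPM per kb, above Alad, on the right.

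The genes whose pattern over the 6 libraries was most like that of a member were sought for the largest fall and the largest rise, by the root mean square distance of log2 CPM centred on each gene's mean, over 14605 genes. For Alas1 they were Anxa3 (distance 0.00987, log2 fold change -1.82), Lamp1 (0.0477, -1.75) and Mpo (0.0510, -1.91). For Ppox they were Edc3 (0.0139, log2 fold change 0.28), Ccnl2 (0.0181, 0.31) and Ash1l (0.0181, 0.34). The distance includes the difference between the groups that picked these members, so it is a description.

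Around the 9 genes, a list of 39 other genes of heme, iron and porphyrin handling had 37 tested, of which 18 fell, 2 rose and 17 did not pass, with a median log2 fold change of -0.15. Over all genes tested, 25.0% were lower, 25.5% higher and 50.5% passed in either direction, so that 20 of 37 passing is near the background. No gene of the list passed the 2-fold limit, which 11.8% of all genes passed. Their summed CPM was between 2747 and 2919 in Ctrl and between 2631 and 2665 in l-FA.

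Among the 6 other heme enzymes, 5 were tested, 2 fell and 1 rose, beside 25.0% lower and 25.5% higher among all genes tested. Cox10 (-0.26), which turns heme b towards heme a, and Hccs (-0.29), which attaches heme to cytochrome c, fell. Blvrb, a biliverdin reductase, rose by 0.25 (SE 0.078, edgeR adjusted p = 0.0338), while its relative Blvra was at -0.04 (SE 0.054, adjusted p = 0.578). Alas2, the erythroid synthase, was below the low-count filter, with 0, 1 and 0 counts in Ctrl and 10, 6 and 4 counts in l-FA.

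In mitochondrial supply and transport 6 of 8 fell, with no rise and a median of -0.38, beside 25.0% lower among all genes tested. Abcb10, a mitochondrial transporter needed for heme synthesis, went from 83.8 ± 1.55 to 50.3 ± 3.02 CPM (SD, n = 3; log2 fold change -0.74, SE 0.051, edgeR adjusted p = 9.04e-05). Slc25a38, the glycine carrier that supplies the first step, went from 20.4 ± 0.794 to 13.8 ± 1.17 CPM (-0.56, SE 0.083, adjusted p = 0.00169). The mitochondrial iron importer Slc25a28 (-0.51), the glutathione carrier Slc25a39 (-0.38), Tmem14c (-0.38), which moves porphyrin precursors, and Tspo (-0.28) of the outer membrane fell too. In iron-sulfur cluster supply 3 of 6 fell, namely Glrx5 (-0.38), Fdxr (-0.25) and the scaffold Iscu (-0.17). In heme movement 2 of the 7 tested fell, near the 25.0% lower among all genes tested, and none rose. The 2 were the heme and folate transporter Slc46a1 (-0.52) and the heme chaperone Pgrmc2 (-0.28).

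Regulators and heme sensors numbered 11, of which 5 fell and 1 rose, beside 25.0% lower and 25.5% higher among all genes tested. Bach1, the heme-sensing repressor of Hmox1, went from 12.4 ± 1.34 to 9.14 ± 0.797 CPM (SD, n = 3; log2 fold change -0.44, SE 0.11, edgeR adjusted p = 0.016), whereas Nfe2l2, the activator, was at 0.06 (SE 0.041, adjusted p = 0.3). The paired heme-binding nuclear receptors of the clock moved apart, Nr1d1 from 15.5 ± 1.82 to 8.61 ± 0.552 CPM (-0.84, SE 0.11, adjusted p = 0.000925) and Nr1d2 from 58.2 ± 2.38 to 95.7 ± 2.76 CPM (0.72, SE 0.044, adjusted p = 5.83e-05). Lonp1 (-0.49), the protease that removes ALAS1 protein when heme is plentiful, fell, as did Mafk (-0.10) and Eif2ak1 (-0.10), the heme-regulated kinase.

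**Figure D4:**
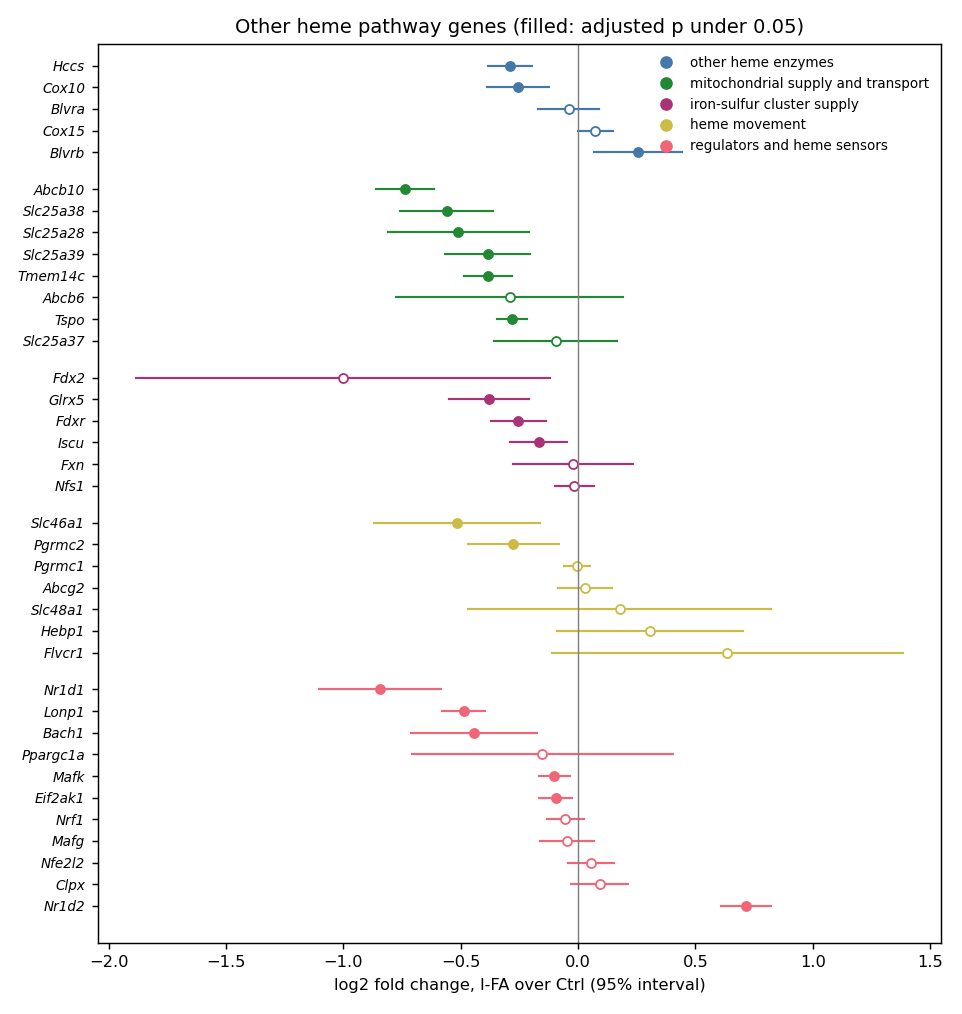
Log2 fold change of l-FA over Ctrl with 95% intervals for the 37 tested genes of the wider heme pathway, coloured by role, with filled points at an adjusted p under 0.05 (edgeR, 3 libraries per group). Falls outnumber rises (18 against 2, where 25.0% of all genes tested were lower and 25.5% higher), and the 8 genes of mitochondrial supply and transport lie below 0.

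Erythroid cells are the blood cells richest in heme synthesis. Of their 12 markers, all tested, 5 rose and 1 fell, beside 25.5% higher and 25.0% lower among all genes tested. The markers had a median log2 fold change of 0.15, and their summed CPM was between 264 and 269 in Ctrl and between 308 and 320 in l-FA. Tfr2 rose by 0.28 and Hbb-bt by 0.55, from 5.60 ± 0.506 to 8.18 ± 0.205 CPM, while Car1 was at 0.03 (adjusted p = 0.654). The part of erythroid or macrophage transcripts in the changes of the heme genes was not tested.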

How the data were processed

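HSC RNA of 3 Ctrl and 3 l-FA libraries was analysed from the counts per gene that the authors deposited, which are whole numbers and not normalized. The authors deposited FPKM values of the same counts as well, which were used for ratios and levels. The submitters' processing notes list HISAT2, SAMtools 1.3.1, StringTie, edgeR and GRCm39, and the study's methods name DESeq2. The counting tool, annotation and strand setting are not given in the sources used here. Samples were grouped by their labels.

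The test on the counts used R 4.3.3 and edgeR 4.0.16 (filterByExpr, TMM, glmQLFit, glmQLFTest; 16520 of 27198 genes; biological coefficient of variation 0.134 in common), and the code was tested on simulated counts. The SE is the log2 fold change divided by the square root of F, and intervals use the test's degrees of freedom. Lengths came from GENCODE M21, and motifs were searched in RefSeq windows of GRCm38.p6. Listed coordinates are as deposited, since only 580 of 25672 shared genes had the same start and end in M21.

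Named were all members, genes of the written pathway lists that passed or are always given (Alas2, Blvra, Blvrb, Bach1, Nfe2l2), the 3 markers per list highest in FPKM, the 3 genes nearest in pattern among those of at least 1 CPM, genes overlapping a member, and genes said to be named after their values were seen. Some genes of the lists are not reported here and were left out of the lists' counts. Members and lists were chosen with earlier results of these data known. Alternatives were the replicate block, DESeq2 1.42.0, a test beyond 1.2-fold, scaling by upper quartile or RLE, a minimum of 10 counts in all libraries or no filter, each library left out, and, added after the lengths were seen, other gene lengths. Amplified reads without molecular identifiers are not independent molecules, so counting errors cover counting only.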

Additional observations from a re-analysis of the deposited data

How the results depend on the processing

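Alas1, Uros, Cpox and Ppox passed in all 12 other fits that tested for any change, 6 of which left out a library. The weaker calls of Alad and Urod depended on single libraries, and 4 to 6 of the 9 genes passed in each fit. Fech, never past the threshold, changed sign with upper-quartile scaling (0.023), with a minimum of 10 counts in all libraries (0.0060) and without Ctrl replicate 1, l-FA replicate 1 or l-FA replicate 3, from -0.039 to 0.037 over the fits that leave out a library, and Hmox2 without Ctrl replicate 3 or l-FA replicate 1, from -0.081 to 0.23. Tested beyond a 1.2-fold change, 3 members were lower and 0 higher, where that test asks for more than a difference from 0. With a library left out, 1 to 2 members were called higher, with 1 without Ctrl replicate 1, Ctrl replicate 2 or l-FA replicate 1. Between 1 and 3 pathway genes were then higher, with 1 without Ctrl replicate 2 or Ctrl replicate 3, and 12 to 17 lower, with 12 without l-FA replicate 1. Genes past 2-fold numbered 1946, but 3335 without the low-count filter and 930 with the minimum of 10 counts, since low genes enter or leave. In the order of levels, 5 of the 9 genes kept their FPKM rank with the coding-transcript length in Ctrl and 6 in l-FA. With the union of exons 7 kept it in Ctrl and 5 in l-FA. Replicate numbers are shared by the groups, but over all genes tested same-numbered libraries were not alike. Correlations of same-numbered deviations were 0.0107, -0.0109 and -0.0691, and those of other pairs lay between -0.0645 and 0.0718. These values do not speak for single genes, and Hmox2 was lowest in replicate 3 of both groups. With a replicate block 7405 genes passed in place of 8336 and the same number of members, 6. Hmox2 was then at 0.07 (SE 0.056, edgeR adjusted p = 0.381), where the SE without the block was 0.19. Among the 9 genes, depth limits Hmox1 the most, at 89 to 143 counts.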

Other observations

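Alas1 and Mpo kept nearly the same proportion across the groups, a comparison chosen after their values were seen. There were 3.32, 3.20 and 3.28 Alas1 counts per 100 Mpo counts in the Ctrl libraries and 3.46, 3.49 and 3.51 in the l-FA libraries. All 3 l-FA values were above all 3 Ctrl values, by far less than the change of either gene alone. Mpo was among the 3 genes nearest to Alas1 in pattern over these libraries, so a similar proportion follows from that likeness and is no further result. Elane was 7.06-fold lower and Ctsg 3.20-fold lower in l-FA, beside 3.52-fold for Alas1. Mpo is the most abundant of the granulocyte-monocyte markers, and a shared cause was not tested.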
